A study of Mus musculus and blank sample with 191 samples.

Results

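The genes described here serve the entry of thyroid hormone into cells, its activation and inactivation, its storage, and 2 of its classical target genes. The 9 members are Slc16a10, Slc7a5 and Slc7a8 (transporters), Dio1, Dio2 and Dio3 (deiodinases), Crym (a cytosolic binding protein), and Hr and Thrsp (target genes). They were picked out by symbol with no threshold on a measured value, although earlier results of these data were known when the set was chosen. All 9 are among the 19962 targets of the raw count table, and 7 of them are among the 14881 targets that the authors kept after filtering on detection. Dio3 and Crym are the 2 that were not kept.

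Uterine tissue of Thra1 PV/+ mice, labelled PV/N, was compared with that of wild-type mice labelled N/N and called WT below. PV is a C-terminal frame-shift in the thyroid hormone receptor TRα1, knocked into the Thra gene in the heterozygous state, which yields a dominant negative receptor under the gene's own promoter. All were adult females matched for the estrous cycle, no treatment is named for them, and the sources used here do not give their strain. The assay was the GeoMx Whole Transcriptome Atlas, in which probes hybridised to fixed tissue are released by light from chosen regions and counted. Regions of epithelium (mucosa and glands) and of endometrial stroma were chosen by a pathologist on morphology and on staining for pancytokeratin and smooth muscle actin. The labels name 6 PV mice aged 2.4, 2.4, 4.0, 4.2, 5.9 and 6.3 months (PV1 to PV6) and 8 WT mice aged 4.0, 4.5, 5.0, 5.4, 6.3, 6.3, 7.4 and 9.0 months (WT1 to WT8), with ages given without a unit and read as months. The design text counts 13 mice, whereas the labels carry 14 animal numbers.

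Counts were summed over the first-plate regions of a mouse within a compartment, so that the mouse was the replicate. This gave 31 regions of PV epithelium, 29 of WT epithelium, 21 of PV stroma and 14 of WT stroma, with 1 to 15 regions a mouse. WT4 had no stroma region on this plate, so 13 mice had both compartments. Summed counts ran from 61691 to 13492532, with a median of 1715323. PV2 was the shallowest mouse, with 1 region in each compartment, and 6 members stood at 1 count in its epithelium. In all 60 regions of the first plate labelled epithelium the columnar markers (Krt8, Epcam, Cdh1 and others) summed higher than the fibroblast markers (Dcn, Lum, Col1a1 and others), and in 0 of the 35 labelled stroma. On the second plate this held for 30 of 57 regions labelled epithelium and for 13 of 37 labelled stroma, so the markers went against 27 and 13 of its labels and that plate entered only as an alternative. Of 8 squamous markers 6 lay near the negative-probe level in epithelium, by the median over PV and WT mice together. This was not worked out within each genotype. The 8 summed to 72.6 to 462 CPM in PV epithelium (median 121), highest in PV5, and to 67.1 to 115 in WT epithelium (median 100). No source used here says that the Thra probe tells the PV allele from the normal one, so no measurement checks the genotype labels.

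Thyroid hormone leaves the gland mainly as the prohormone T4, which crosses cell membranes through carriers of the monocarboxylate, organic anion and L-type amino acid families. Inside the cell, outer-ring deiodination by the type 1 and type 2 enzymes makes the active hormone T3, and inner-ring deiodination by the type 3 enzyme destroys both forms. T3 then binds nuclear receptors at response elements of target genes, and in the pregnant uterus the type 3 enzyme is best known from the decidua and placenta, where it limits the hormone that reaches the embryo.

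SLC16A10 is the aromatic amino acid carrier MCT10, which also moves T3 and T4. SLC7A5 and SLC7A8 are the light chains LAT1 and LAT2, which work as heterodimers with the heavy chain encoded by Slc3a2. DIO1, DIO2 and DIO3 are the selenoprotein deiodinases of type 1, 2 and 3. CRYM, or μ-crystallin, binds T3 in the cytosol. Hr encodes Hairless, a corepressor whose gene is induced by T3 in brain and skin, and Thrsp encodes Spot 14, a nuclear protein of lipogenic tissue induced by T3. On GRCm38 the genes lie at chr10:40033532-40142258 (Slc16a10), chr8:121881150-121907694 (Slc7a5), chr14:54722209-54781946 (Slc7a8), chr4:107291465-107307169 (Dio1), chr12:90724552-90738438 (Dio2), chr12:110279068-110281097 (Dio3), chr14:70552212-70573548 (Hr), chr7:97412938-97417730 (Thrsp) and chr7:120186380-120202111 (Crym). Dio3 and Hr are on the plus strand and the other 7 on the minus strand. Each of the 9 was read by 1 probe, and the sources used here do not say where in the gene it lies.

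Promoter windows of 300 bases that end just after the RefSeq start (GRCm38.p6) were at hand for 6 members, namely Slc16a10, Slc7a8, Dio1, Dio2, Dio3 and Thrsp. The 3 given here belong to the genes that differed most between epithelium and stroma. They run 5′ to 3′ on the gene's own strand, the minus strand in each case, and cover chr12:90738989-90739288 (Dio2), chr14:54781837-54782136 (Slc7a8) and chr7:97417501-97417800 (Thrsp). Starts are those of RefSeq, whereas the gene spans above are those of GENCODE, and the 2 can differ. The Dio2 window lies wholly upstream of the gene span given above. Capitals mark matches to TGACGTCA (the cyclic AMP response element), TATAAA (the core promoter element named after it) and GGGCGG (the Sp1 element), searched on both strands.
Dio2: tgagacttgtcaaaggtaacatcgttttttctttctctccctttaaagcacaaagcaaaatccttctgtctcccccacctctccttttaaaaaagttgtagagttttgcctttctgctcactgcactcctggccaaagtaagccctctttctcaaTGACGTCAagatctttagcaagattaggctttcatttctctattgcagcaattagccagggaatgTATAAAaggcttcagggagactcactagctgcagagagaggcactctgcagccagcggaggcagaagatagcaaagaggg
Slc7a8: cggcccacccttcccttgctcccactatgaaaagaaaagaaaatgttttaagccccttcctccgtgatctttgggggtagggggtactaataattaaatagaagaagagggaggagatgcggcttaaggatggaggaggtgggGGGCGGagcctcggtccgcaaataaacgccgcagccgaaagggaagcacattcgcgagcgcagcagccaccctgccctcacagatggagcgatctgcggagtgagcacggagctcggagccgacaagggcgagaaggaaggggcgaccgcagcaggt
Thrsp: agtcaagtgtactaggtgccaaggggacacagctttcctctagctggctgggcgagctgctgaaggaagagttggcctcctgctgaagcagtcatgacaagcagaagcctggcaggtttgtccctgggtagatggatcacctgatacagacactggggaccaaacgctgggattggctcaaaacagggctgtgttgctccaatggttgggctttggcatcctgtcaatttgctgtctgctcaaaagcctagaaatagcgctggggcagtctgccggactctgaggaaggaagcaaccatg
In Dio2 the TGACGTCA match began 95 bases and the TATAAA match 30 bases before the start. In Slc7a8 the GGGCGG match began 107 bases before the start, and Thrsp held none of the 3. Of the 32851 RefSeq mouse promoters, 1.79% held TGACGTCA, 13.6% TATAAA and 35.7% GGGCGG. The receptor half-site AGGTCA was found in 16.3% of all promoters and in 0 of the 6 members. A direct repeat of AGGTCA spaced by 4 bases was found in 0.0152% of all promoters and in 0 of the 6. These letters alone were searched, in this window alone.

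Levels were first set against the negative probes, which match no mouse transcript and give the count that arises without a target. A member was called near this level in a compartment where its summed count was less than 2 times the summed negative-probe count in the median mouse. In epithelium 4 of the 9 members lay near it, with median ratios of 1.99 for Slc16a10, 1.49 for Dio3, 1.93 for Hr and 1.64 for Crym. In stroma 3 lay near it, with ratios of 1.82 for Dio1, 1.76 for Dio3 and 1.75 for Crym. Dio3 and Crym were thus near the negative probe in both compartments, and their values below are read with that limit. Of all 19962 targets, 38.4% lay near the negative probe in epithelium and 28.9% in stroma.

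Dio2 stood far above the negative probe, with a median ratio of 12.1 in epithelium (2.87 to 34.9 over 14 mice) and of 58.5 in stroma (10.1 to 239 over 13 mice). Slc7a8 was at 4.11 in epithelium and 17.6 in stroma, and Slc7a5 at 7.06 and 5.03. Thrsp was at 6.89 in epithelium and 2.15 in stroma, Dio1 at 3.73 in epithelium, Slc16a10 at 3.12 in stroma, and Hr at 2.33 in stroma. Single regions gave the same picture. Counts above the limit of quantification, set 2 geometric standard deviations above the negative probes, were found for Dio3 in 3 of 60 epithelium and 3 of 35 stroma regions and for Crym in 4 and 1. Dio1 passed that limit in 30 epithelium regions but in 2 stroma regions, and Slc7a8 in 40 and in all 35. Slc16a10 left the near group in epithelium when the median over regions (2.26) or both plates (2.39) were used. Dio1 left it in stroma with both plates (2.13), where the markers of 13 of 37 second-plate stroma regions went against the label. In epithelium 0 of the 8 fibroblast markers lay near the negative probe. They summed to a median of 910 CPM in PV and 1214 in WT epithelium, against 8878 and 6937 in stroma. The part of stromal RNA in the epithelium values of Dio2 and other members was not tested.

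**Figure D1:**
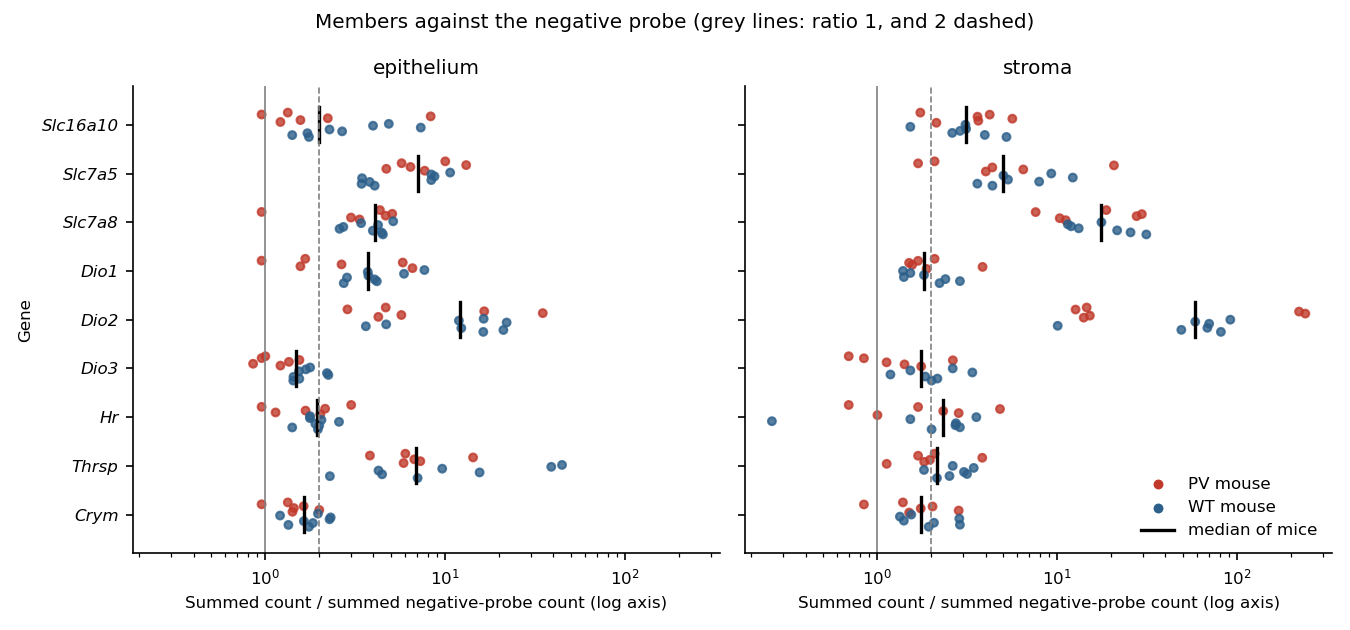
Summed count of each of the 9 genes divided by the summed negative-probe count, on a log axis, for epithelium (left, 14 mice) and stroma (right, 13 mice). Points are mice, coloured by genotype, and black bars are medians. Dio2 in stroma reaches 239 in PV4, whereas the Dio3 and Crym medians lie left of the dashed line at 2 in both compartments.

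Epithelium and stroma of the same mice differed in 5 of the 7 members tested. Slc7a8 and Dio2 were 5.30-fold and 5.08-fold higher in stroma, Thrsp was 3.91-fold and Dio1 1.74-fold higher in epithelium, and Hr was 1.41-fold higher in stroma. Slc16a10 and Slc7a5 did not pass the test. Across all 14881 genes 63.0% passed it by edgeR's quasi-likelihood test with the mouse as a block and an adjusted p under 0.05. Genes with the higher level in epithelium made up 28.4% and those with the higher level in stroma 34.6%, so that 5 of 7 is near the share of all genes. With upper-quartile in place of TMM scaling the split of all calls moved from 4229 and 5151 to 3241 and 6443, and the median log2 fold change of all genes from -0.05 to -0.18. In such summed tissue, fewer cells of a type and less RNA per cell cannot be told apart.

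Among the transporters, Slc7a8 separated the compartments completely. Its level in epithelium was 3.99 to 4.84 log2 CPM, with a median of 4.43 in PV and 4.55 in WT mice, and in stroma it was 6.15 to 7.56, with medians of 6.75 and 6.65. The highest epithelium value lay below the lowest stroma value. How many of all genes separated the compartments in this way was not counted. The log2 fold change of epithelium over stroma was -2.41 ± 0.11 (SE; edgeR adjusted p = 2.66e-12), and stroma was higher in 13 of 13 mice (exact permutation of signs, two-sided p = 0.000244, the smallest that 13 pairs allow).

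Slc7a5, the other L-type light chain, showed no such order. It lay at 4.48 to 6.51 log2 CPM in epithelium and at 3.81 to 6.49 in stroma, and the ranges covered each other. Its log2 fold change was -0.04 ± 0.17 (edgeR adjusted p = 0.852), with epithelium higher in 7 of 13 mice. Slc16a10 lay at 2.75 to 5.25 in epithelium and at 3.56 to 5.69 in stroma, with stroma higher in 9 of 13 mice (-0.39 ± 0.27; adjusted p = 0.213). Without PV3, the mouse with the second highest epithelium value, the estimate moved to -0.60 (adjusted p = 0.0443).

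Of the deiodinases, Dio2 was the one with a clear side. It lay at 4.42 to 7.55 log2 CPM in epithelium and at 6.20 to 10.40 in stroma, and although these ranges overlapped, stroma was higher in 13 of 13 mice. Its log2 fold change was -2.34 ± 0.18 (edgeR adjusted p = 1.94e-09; exact permutation p = 0.000244). Dio1 lay at 3.04 to 5.17 in epithelium and at 2.87 to 4.80 in stroma, and epithelium was higher in 10 of 13 mice. For Dio1 the log2 fold change was 0.80 ± 0.22 (edgeR adjusted p = 0.00363), the exact permutation test of the per-mouse differences gave p = 0.0532, and the call was lost with limma on per-mouse means of Q3 values (0.30; adjusted p = 0.208). Dio1 lay near the negative probe in stroma, and with the negative-probe count subtracted the log2 fold change was 1.38.

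Dio3 lay at 2.39 to 4.18 log2 CPM in epithelium and at 2.39 to 4.37 in stroma. It was tested only in the fit of all 19962 targets, where its log2 fold change was -0.32 ± 0.15 (edgeR adjusted p = 0.0621; exact permutation p = 0.0496), with stroma higher in 9 of 13 mice. Crym, tested in the same fit, lay at 2.75 to 4.23 in epithelium and at 3.02 to 4.40 in stroma. Stroma was higher in 10 of 13 mice (-0.27 ± 0.11; adjusted p = 0.0555; exact permutation p = 0.0300). Both were within 2 times the negative probe in most mice, and neither passed the test over all genes.

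Of the target genes, Thrsp was the higher in epithelium. It lay at 3.92 to 7.71 log2 CPM there and at 3.40 to 4.94 in stroma, and only in WT7 was stroma the higher of the pair. The log2 fold change was 1.97 ± 0.24 (edgeR adjusted p = 9.54e-07), with epithelium higher in 12 of 13 mice (exact permutation p = 0.000488). Hr lay at 3.17 to 4.40 in epithelium and at 1.24 to 4.43 in stroma. Its log2 fold change was -0.49 ± 0.18 (edgeR adjusted p = 0.0222), but the exact permutation test gave p = 0.462, and the call was lost without PV3 (-0.40; adjusted p = 0.0682) and with the negative-probe count subtracted (-0.74; adjusted p = 0.107).

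**Figure D2:**
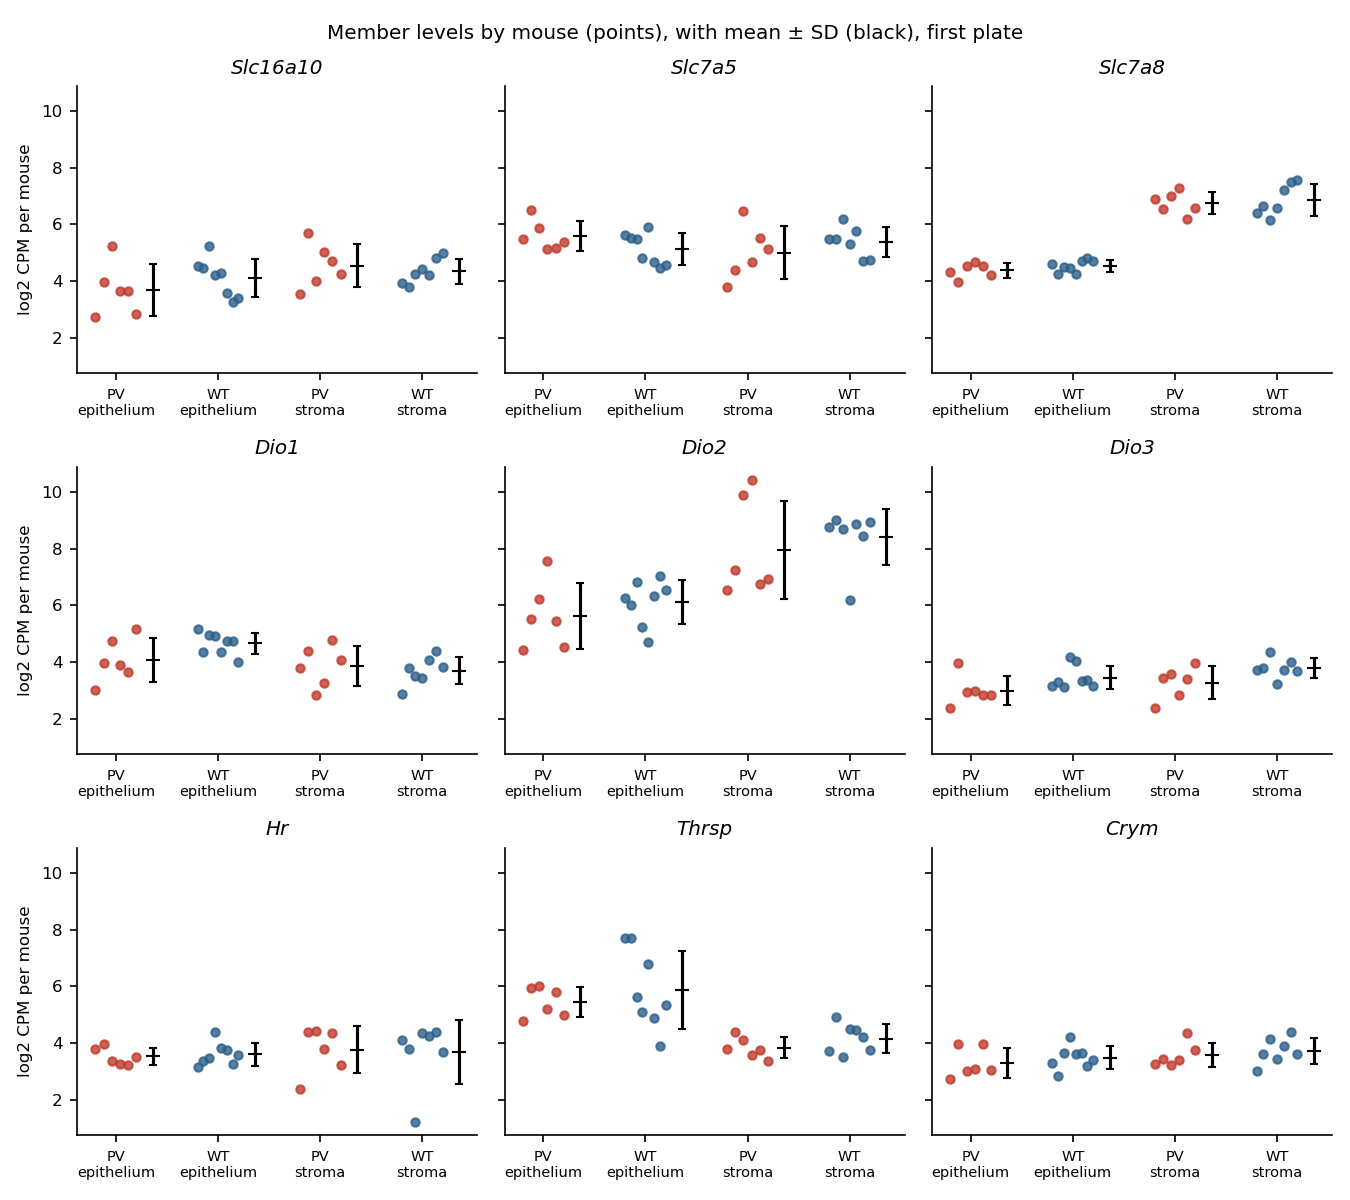
Level of each of the 9 genes in log2 CPM (counts scaled to library size) for each mouse (points), with the mean and SD of each group in black, for PV epithelium (6 mice), WT epithelium (8), PV stroma (6) and WT stroma (7). Slc7a8 and Dio2 stand higher in stroma and Thrsp in epithelium, whereas PV and WT points overlap in every panel.

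PV and WT mice were compared within each compartment. No member passed the test in either. In epithelium 0 of 14881 genes (0%) had an edgeR adjusted p under 0.05, and 0 of the 7 members had an unadjusted p under 0.05 against 1223 of all genes. In stroma the counts were again 0 genes (0%) and 0 members, with 524 genes at an unadjusted p under 0.05. By DESeq2 28 genes passed in epithelium and 2 in stroma, by limma on per-mouse means 0 and 0, and by limma over regions 1 and 2, with 0 members in each. PV mice were younger than WT mice (2.4 to 6.3 against 4.0 to 9.0 months), and with age as a covariate 10 genes and 0 members passed in epithelium. A miss of the threshold with 6 mice against 8 or 7 does not show that the levels were equal.

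The ranges of the transporters overlapped between PV and WT mice. In epithelium Slc16a10 had a median of 3.67 log2 CPM in PV (2.75 to 5.24) and of 4.26 in WT mice (3.27 to 5.25), with a log2 fold change of PV over WT of -0.13 ± 0.40 that ran from -0.87 to 0.073 when each mouse was left out. Slc7a5 had medians of 5.44 (5.13 to 6.51) and 5.16 (4.48 to 5.90), and its log2 fold change was 0.31 ± 0.26 (edgeR adjusted p = 0.785; exact permutation p = 0.143). The highest Slc7a5 value was that of PV2, from 6 counts. Slc7a8 varied least of the 7, with an SD of 0.26 log2 CPM in PV and 0.22 in WT epithelium, and a log2 fold change of -0.08 ± 0.15.

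In stroma the 3 log2 fold changes were 0.17 ± 0.27 for Slc16a10, -0.0039 ± 0.34 for Slc7a5 and -0.12 ± 0.26 for Slc7a8. Slc7a5 spread over 3.81 to 6.49 in PV and over 4.71 to 6.18 in WT stroma, with PV1 lowest and PV3 highest. Adjusted p-values were 1.00 for all 3.

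Among the deiodinases, Dio1 had a median of 3.95 log2 CPM in PV epithelium (3.04 to 5.16) and of 4.75 in WT epithelium (4.03 to 5.17). PV1, PV2, PV4 and PV5 lay below every WT mouse, whereas PV3 and PV6 lay among the WT values. How many of all genes split in this way was not counted. PV1, PV2 and PV5 had 5, 1 and 11 Dio1 counts and lay under 2 times the negative probe (ratios of 1.67, 0.956 and 1.57). The log2 fold change was -0.34 ± 0.27 (edgeR adjusted p = 0.778; exact permutation p = 0.0779). The exact permutation p was under 0.05 only without PV6 (0.0101), without PV3 (0.0466) and with the negative-probe count subtracted (0.0316). PV6 and PV3 are the PV mice that lay among the WT values, so leaving out either lowers this p by choice. In stroma Dio1 had medians of 3.95 and 3.82 (0.03 ± 0.34).

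Dio3 had a median of 2.91 in PV epithelium (2.39 to 3.99) and of 3.32 in WT epithelium (3.12 to 4.18), and 5 of 6 PV mice lay below every WT mouse. How many of all genes split in this way was not counted. PV2, the exception, had 1 Dio3 count. In the fit of all 19962 targets its log2 fold change was -0.49 ± 0.20 (edgeR unadjusted p = 0.0250, adjusted p = 0.660; exact permutation p = 0.0986). The exact permutation p was under 0.05 only without PV2 or in mice with at least 2 regions (0.00544 in both), and with the negative-probe count subtracted (0.000999 over all mice). Leaving out PV2 removes the mouse that broke the order. In stroma the log2 fold change was -0.41 ± 0.26 (exact permutation p = 0.0728), with medians of 3.44 and 3.74. There the exact permutation p was under 0.05 only without PV6 (0.0189), the highest PV value, or without WT5 (0.0303), the lowest WT value. Median ratios to the negative probe were 1.11 in PV and 1.62 in WT epithelium, and 1.27 and 2.01 in stroma, so that 3 of the 4 group medians lay under 2 times the background count.

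Dio2 gave the widest spread of the 3 deiodinases. In epithelium it had a median of 5.49 in PV (4.42 to 7.55) and of 6.29 in WT mice (4.72 to 7.05), with a log2 fold change of -0.12 ± 0.45. In stroma the medians were 7.09 (6.54 to 10.40) and 8.75 (6.20 to 8.99). The edgeR log2 fold change in stroma was 0.30 ± 0.59, whereas the difference of the mean log2 CPM values was -0.45 (exact permutation p = 0.554). Without PV4 the edgeR value was -0.40, and without PV3 it was -0.03, so no direction can be given.

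Of the remaining members, Thrsp had medians of 5.50 in PV epithelium (4.77 to 6.01) and 5.49 in WT epithelium (3.92 to 7.71). WT1 and WT2 were at 7.69 and 7.71 and WT5 at 6.78, above all PV mice, and the other 5 WT mice lay among or below the PV values. Its edgeR log2 fold change was -0.96 ± 0.54 (adjusted p = 0.664), and the exact permutation test gave p = 0.481. On per-mouse means of Q3 values the same difference was -0.13, and without WT2 the edgeR value was -0.63. In stroma Thrsp had medians of 3.79 and 4.21 (-0.50 ± 0.26; edgeR unadjusted p = 0.0710, adjusted p = 1.00). Hr was at -0.23 ± 0.22 in epithelium and -0.0023 ± 0.35 in stroma, and Crym at -0.28 ± 0.21 and -0.11 ± 0.24.

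**Figure D3:**
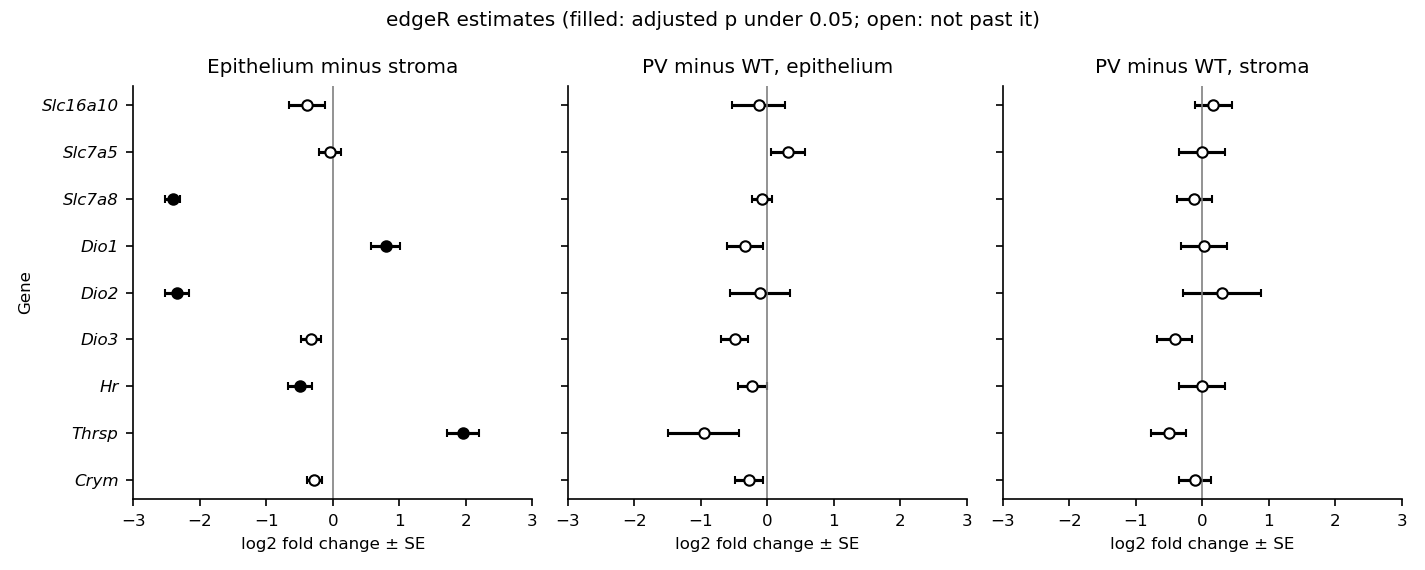
edgeR log2 fold changes with their SE (derived from the F statistic) for epithelium over stroma and for PV over WT in each compartment, 1 row a gene. Filled points have an adjusted p under 0.05. They are the 5 members Slc7a8, Dio2, Thrsp, Dio1 and Hr in the compartment comparison, and 0 members in both genotype comparisons.

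The test of the difference between the genotype effects in epithelium and stroma gave 0 genes of 14881 (0%) by edgeR, 1066 at an unadjusted p under 0.05, and 0 of the 7 members at either. DESeq2 called 1 gene, limma on per-mouse means 0 and limma over regions 65, with 0 members in each. When mice under 5 months were set against mice from 5 months on, the genotype effect did not differ in any gene of either compartment after adjustment (0%), with 537 genes in epithelium and 822 in stroma at an unadjusted p under 0.05, and 0 and 1 called by DESeq2. At that unadjusted level the members were Thrsp in epithelium (difference of log2 fold changes 2.07 ± 0.76, p = 0.0151, edgeR adjusted p = 1.00) and Slc7a8 in stroma (-1.19 ± 0.52, p = 0.0330, adjusted p = 0.886). The younger class held 2 WT and 4 PV mice and the older class 2 PV mice, so these values rest on few animals.

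The mouse was the main source of variation for stromal Dio2. In PV stroma it was at 9.89 log2 CPM in PV3 and 10.40 in PV4, aged 4.0 and 4.2 months, but at 6.54 in PV1, 7.26 in PV2, 6.75 in PV5 and 6.92 in PV6. In WT stroma 6 mice lay between 8.43 and 8.99, and WT5 was at 6.20. Thus PV3 and PV4 lay above, and the other PV mice below, all WT mice but WT5.

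Single stroma regions repeated this order. Q3-normalised Dio2 counts, scaled by the authors to the upper quartile of each region, were 492 to 743 in the 4 regions of PV3 and 581 to 1276 in the 10 regions of PV4. In the other PV mice they were 9.02 to 108, in WT5 27.1 to 93.4 and in the other WT mice 178 to 424. Between mice lay 90.9% of the variance in PV stroma and 75.7% in WT stroma, against a median of 38.9% and 29.3% over all filtered genes. PV3 and PV4 lay within the range of the other mice for the summed fibroblast markers (9212 and 8544 CPM against 2789 to 17771), the smooth muscle markers (787 and 442 against 268 to 1500) and the endothelium markers (314 and 326 against 228 to 693). They stood at the edge for others. PV4 had the highest sum of columnar epithelium markers (405 against 158 to 372 in the mice other than PV3 and PV4) and of leukocyte markers (126.2 against 38.5 to 125.5), and PV3 the lowest of adipocyte markers (61.2 against 64.5 to 320.5). The part of these in the Dio2 values was not tested. In epithelium PV4 was again the highest for Dio2, at 7.55, with a region reaching 405.

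Slc7a8 behaved otherwise. Its highest stroma region exceeded the lowest 3.11-fold in PV and 2.99-fold in WT mice, against 141-fold and 15.7-fold for Dio2. In PV mice 0% of the epithelial variance and 6.91% of the stromal variance of Slc7a8 lay between mice. In WT stroma, however, the share was 87.0%, over 14 regions of 7 mice.

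Thrsp in epithelium differed widely between regions of the same mouse, as did Dio1, of whose variance 0% lay between mice in either genotype. In the 29 regions of WT epithelium it ran from 5.70 to 254, and in the 31 of PV epithelium from 5.85 to 66.7, while the medians were 22.7 and 23.4. The 3 highest regions were 1 each of WT2 (254), WT1 (236) and WT5 (211), and the next was a second region of WT2 (172). The median of the 57 regions other than the 3 highest was 22.0. Between mice lay 20.3% of the variance in WT and 0.199% in PV epithelium, less than the medians of 26.1% and 36.4% over all filtered genes. Thrsp is also a gene of adipocytes, and 5 of 6 adipocyte markers (Adipoq, Plin1, Lep, Fabp4 and Cd36) lay near the negative probe in epithelium. The other, Cidec, did not, and like Thrsp it was called higher in epithelium than in stroma. Cd36, Lep and Adipoq were called higher in stroma. In the 3 highest Thrsp regions the 4 adipocyte markers of the filtered table summed to 23.1, 21.0 and 62.7, against a median of 35.0 and a range of 15.0 to 74.6 in the other 57, and Fasn was at 80.4, 148 and 116 against a median of 91.0. Me1 lay below the median of the other 57 in all 3 (23.7, 17.8 and 19.0 against 47.3), and Acaca above it in all 3 (42.6, 44.2 and 108 against 19.5). The part of adipocyte RNA in the Thrsp values was not tested.

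**Figure D4:**
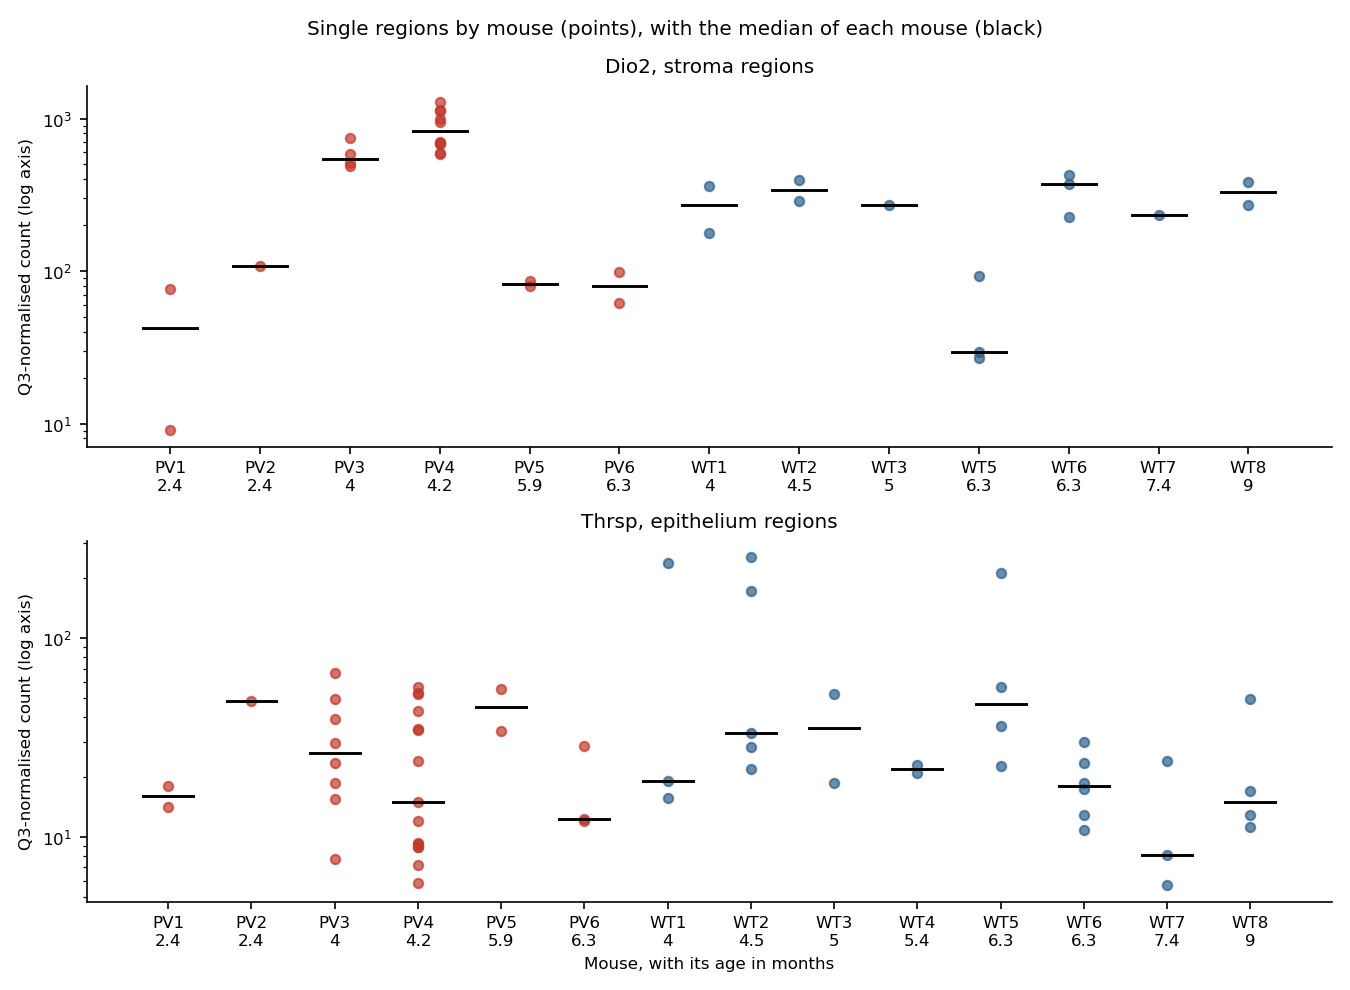
Q3-normalised count of single first-plate regions by mouse on a log axis, with the median of each mouse in black, for Dio2 in stroma (top) and Thrsp in epithelium (bottom). Regions of PV3 and PV4 lie above all others for Dio2, whereas for Thrsp single regions of WT1, WT2 and WT5 lie above 200 and the other regions of the same mice do not.

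Other genes of the pathway were taken from lists named for their role. The counts of calls between compartments in these lists are to be read against the 63.0% of all genes called (28.4% higher in epithelium, 34.6% higher in stroma), and those of the 4 lists with over 10 genes tested lay near that share. Of 11 further carriers of iodothyronines 3 were in the filtered table. Slco2b1, an organic anion carrier, was 3.58-fold higher in stroma (edgeR adjusted p = 1.53e-09), and Slco4a1, of the same family, was 2.65-fold higher in epithelium (adjusted p = 0.000339). Slc3a2, the heavy chain partner of both L-type carriers, was at 0.21 ± 0.10 (adjusted p = 0.0725). The median log2 fold change of the 3 was 0.21 against -0.05 for all genes.

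Of the 12 receptors and partners, 2 passed the test as higher in epithelium and 5 as higher in stroma, against 63.0% of all genes in either direction, with a median of -0.17. Thra was 2.23-fold (adjusted p = 5.64e-07) and Thrb 1.44-fold higher in stroma (adjusted p = 0.000924), the latter near the negative probe in both compartments, with median ratios of 1.82 and 1.96. The coactivator Ncoa1 was also higher in stroma (-0.52 ± 0.09), whereas the corepressor Ncor1 (0.46 ± 0.07) and its partner deacetylase Hdac3 (0.93 ± 0.09) were higher in epithelium. Other target genes went both ways, with 7 higher in epithelium and 3 in stroma of 15 tested and a median of 0.21. Gpd2 (mitochondrial glycerol phosphate dehydrogenase), Me1 (malic enzyme) and Fasn (fatty acid synthase) were 2.84-fold, 2.74-fold and 2.52-fold higher in epithelium, whereas Klf9 was 2.94-fold higher in stroma. Scd1, another gene of fatty acid synthesis and named after its values were seen, as was Acaca, was 1.45-fold higher in stroma (adjusted p = 0.0178), and Acaca did not pass the test (-0.27 ± 0.13; adjusted p = 0.0864).

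Deiodinases need selenium. Of 11 genes for other selenoproteins or for selenoprotein synthesis, 4 were higher in epithelium and 2 in stroma, against 63.0% of all genes in either direction, with a median of 0.14. Selenop, the plasma carrier of selenium, and Gpx3 were 6.25-fold and 4.57-fold higher in stroma, and Txnrd1 and Sephs2 2.56-fold and 1.67-fold higher in epithelium. Of 15 amino acid transporters and related genes 6 were higher in epithelium and 4 in stroma, near the 63.0% of all genes called, with a median of 0.18. They included Slc1a5 (5.82-fold) and Slc7a11 (5.11-fold) in epithelium and Slc38a1 (3.69-fold) and the L-type carrier Slc43a2 (2.32-fold) in stroma. Of 8 hormone-binding and conjugating genes 3 were tested, and the steroid sulfatase gene Sts was 2.03-fold higher in stroma.

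For PV against WT and for the difference of the genotype effects, 0 genes of these lists passed the test in either compartment. Klf9, a transcription factor induced by thyroid hormone, was at 3.89 to 5.05 log2 CPM in PV and 5.19 to 6.04 in WT epithelium. There all 6 PV mice lay below all 8 WT mice. How many of all genes separated the genotypes in this way was not counted, and the permutation test was not run over all genes. The log2 fold change of Klf9 was -1.09 ± 0.21 (edgeR adjusted p = 0.120; exact permutation p = 0.000333). It passed with DESeq2 (adjusted p = 0.00795) and with age as a covariate (adjusted p = 0.0402). The other 9 alternatives and all 14 fits with a mouse left out did not call it. In stroma Klf9 was at -1.31 ± 0.28 (edgeR adjusted p = 0.579; exact permutation p = 0.00117). It passed with DESeq2 (adjusted p = 0.0248), with limma over regions (adjusted p = 0.00451) and without PV3 (adjusted p = 0.00588). The other 9 alternatives and 12 of the 13 fits with a mouse left out did not call it there. Thra was at 0.62 ± 0.28 in epithelium (edgeR adjusted p = 0.593) and at 0.99 ± 0.28 in stroma (adjusted p = 0.959; exact permutation p = 0.0152). Its highest values were those of PV2 and PV1 in epithelium and of PV1 and PV6 in stroma. Thrb was at -0.40 ± 0.21 in epithelium.

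The genes most like a member were sought by Pearson's r of log2 CPM over the mice of the compartment where the member was higher, among all filtered genes. These are descriptions over 14 or 13 points that share library and depth, and the highest of some 14881 values is large by choice. For Dio1 in epithelium they were Sult1c2 (r = 0.87), Foxj1 (0.84), which marks ciliated cells, and Steap3 (0.83). For Dio2 in stroma they were Jmjd6 (0.87), H6pd (0.83) and Cpsf4 (0.82), for Slc7a8 in stroma Plin2 (0.89), Hbp1 (0.88) and Tlr4 (0.88), and for Thrsp in epithelium Jam2 (0.90), Zmpste24 (0.88) and Pkdcc (0.88), the last near the negative probe. For Slc7a5 in epithelium they were Arl2 (0.95), 9130401M01Rik (0.91) and Cep152 (0.90), for Slc16a10 in stroma Narf (0.95), Fbxl20 (0.93) and Gal3st4 (0.90), and for Hr in stroma Hells (0.88), Mrgprx1 (0.85) and Ppp2r5c (0.85). Between members, Slc7a5 and Slc7a8 ran against each other over the 14 mice in epithelium (r = -0.78) and Slc7a8 and Dio2 together (r = 0.69). In stroma the same pairs gave -0.33 and 0.45. These were the 2 epithelial pairs with the largest r in size. PV2 had the highest Slc7a5 value in epithelium, from 6 counts, and the lowest Slc7a8 value, from 1 count.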

How the data were processed

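GeoMx Whole Transcriptome Atlas data of mouse uterus comprised 189 regions, 95 on the first plate and 94 on the second. Per the study's methods, regions were filtered for quality, probes tested for outliers, values scaled to the upper quartile (Q3), and genes kept where detected in at least 10% of regions. The submitters' processing notes name R 4.1.2, Space Ranger and mm10. The authors deposited raw target counts, with 0 replaced by 1 in 1.66% of first-plate values and here handled like estimated counts, rounded to whole numbers after summing, and Q3-normalised values, which are a signal per region rather than counts. Deposited probe counts per region gave 209 negative probes, whose geometric mean matched the deposited negative-probe value within 1e-06 in 172 of 189 regions.

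Samples were grouped by title, and first-plate counts were summed per mouse and compartment. The main test was edgeR 4.0.16 (R 4.3.3; quasi-likelihood, TMM, two-sided, Benjamini-Hochberg over all genes tested, adjusted p under 0.05) on the 14881 filtered targets, or on all 19962 for Dio3 and Crym. The SE beside an edgeR log2 fold change is the size of that change divided by the square root of the test's F statistic. It was not estimated on its own and need not match the p-value. For Slc7a8 between genotypes in epithelium, -0.08 ± 0.15 stood beside an unadjusted edgeR p of 0.992. Compartments were compared with the mouse as a block, since both come from the same animal. Deviations of a mouse in its 2 compartments from the group means correlated at 0.160 to 0.526, over 0.1 in 13 of 13 mice. Log2 CPM used a prior count of 2, and exact permutation tests enumerated all divisions or sign changes of the mice. DESeq2 1.42.0 and limma 3.58.1 (with a pseudocount of 1) were alternatives, beside other scalings, filters, both plates, age and leaving out each mouse. The methods' own mixed-model test over regions was not run, and limma over regions took the mouse as a random block. The fitting scripts were run on simulated counts with planted changes and without mouse or age effects. This was a check of the code, and no estimate of power is drawn from it here. No 2 regions held identical counts. The 9 members and all gene lists were chosen with earlier results of these data known. Members were always named, and of the lists up to 4 called genes with the lowest p, plus Slc3a2, Thra, Thrb and Klf9. Of the carrier list 1 gene is not reported here. Depth limits precision most in PV2, where 1 count is worth 3.99 log2 CPM in epithelium.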

Additional observations from a re-analysis of the deposited data

Results flagged for a closer look

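In 36 groups of mice, 2 members had a mouse that stood apart from its group by Dixon's criterion, where chance alone gives about 1 in 20. Dio2 in WT stroma was at 6.20 log2 CPM in WT5, against 8.43 to 8.99 in the other 6 mice, and its 3 regions gave 27.1 to 93.4 against 178 to 424 after Q3 scaling. Hr in WT stroma was at 1.24 log2 CPM in WT3, from 1 count in 1 region, against 3.69 to 4.40 in the other 6 mice.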

How the results depend on the processing

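Limits came first from depth and design. Each member was read by 1 probe, several sat near the negative probes, PV2 was shallow, and 6 PV mice stood against 8 WT mice in epithelium and 7 in stroma, with age unequal between the genotypes. The second plate, whose markers went against 27 of 57 and 13 of 37 labels, entered as an alternative only. The cause of the changes given here was not tested.

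The numbers of genes called moved as follows. For genotype in epithelium, DESeq2 called 28, the age covariate 10, limma over regions 1, mice aged 4.0 to 6.3 months 1, and leaving out each mouse gave 0 to 6, with 6 without PV6 or WT6 and 1 without PV4 or WT8. For genotype in stroma, DESeq2 called 2, limma over regions 2, and leaving out each mouse gave 0 to 1 (PV3). Between compartments, 9380 genes fell to 5631 with both plates, against 8875 to 9383 with a mouse left out. For the interaction, DESeq2 called 1 and limma over regions 65, and leaving out each mouse gave 0 to 0. For age class, DESeq2 called 1 in stroma, and leaving out each mouse gave 0 to 5 in epithelium (5 without PV6, 2 without WT5) and 0 to 3 in stroma (PV6). Without the mouse as a replicate block, the compartment fit called 7952 genes and 5 members and the interaction fit 0 and 0, and the block changed no other call.

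Of the members, 5 were called between compartments, 3 with both plates and 5 to 5 with a mouse left out. By exact permutation, 5 members passed an unadjusted p of 0.05 between compartments (Slc7a8, Dio2, Thrsp, Dio3 and Crym, without Dio1 and Hr, which edgeR called), against 3 with both plates, 3 with per-mouse means of the Q3 values and 3 to 6 with a mouse left out (3 without PV6, WT2, WT3 or WT7; 6 without PV2). Dio3 and Crym lay near the negative probe in both compartments. The permutation test was not run over all genes, so these counts have no share of all genes beside them. By edgeR 9898 of 14881 genes had an unadjusted p under 0.05 between compartments. For genotype in epithelium 0 members passed the permutation test, against 2 with the negative probes subtracted (Dio1 and Dio3), 1 in mice with at least 2 regions (Dio3, exact p = 0.00544) and 0 to 1 with a mouse left out. In stroma leaving out each mouse gave 0 to 1 (Dio3), and for the interaction both plates gave 1 (Slc7a5, exact p = 0.0343). Slc7a8, Dio2 and Thrsp kept their compartment direction and call under every alternative run. The Dio1 compartment call was lost with both plates (0.40, adjusted p = 0.0964) and with limma on means, and that of Hr with both plates (-0.22, adjusted p = 0.158), limma on means (-0.32, adjusted p = 0.246), the negative probes subtracted and without PV3. That of Slco4a1 was lost with both plates (0.60), and both limma fits called Slc16a10. Dio3 and Crym were fitted by edgeR with every target and with filterByExpr only.

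These log2 fold changes turned sign, and none was called. For genotype in epithelium, both plates gave 0.19 for Slc7a8, 0.20 for Dio2 and 0.026 for Hr, the age covariate gave 0.010 for Slc7a8, and mice aged 4.0 to 6.3 months gave 0.052 for Slc7a8 and 0.37 for Dio2. Leaving out each mouse spanned -0.87 to 0.073 for Slc16a10 and -0.89 to 0.082 for Dio2. For genotype in stroma, both plates gave -0.30 for Slc16a10, -0.37 for Dio1, 1.31 for Thrsp and -0.030 for Slc3a2. The age covariate gave 0.19 for Slc7a8, 0.039 for Hr and 0.0054 for Thrb, and mice aged 4.0 to 6.3 months 0.19 for Slc7a8 and 0.068 for Hr. With filterByExpr, Slc7a5 was 0.0053, Dio1 -0.017 and Hr 0.033, and with no filter Dio1 was -0.019 and Hr 0.0096. Mice with at least 2 regions gave 0.10 for Slc7a5. limma on means gave -0.59 for Dio2, 0.10 for Hr, -0.033 for Slc3a2 and 0.015 for Thrb, and limma over regions -0.023 for Dio1 and -0.15 for Dio2. Leaving out each mouse in stroma spanned -0.083 to 0.35 for Slc16a10, -0.56 to 0.16 for Slc7a5, -0.26 to 0.030 for Slc7a8, -0.30 to 0.27 for Dio1, -0.40 to 0.51 for Dio2 and -0.23 to 0.11 for Hr. Between compartments, Slc7a5 was 0.033 by DESeq2, 0.041 with filterByExpr and with no filter, 0.0048 in mice with at least 2 regions, and -0.11 to 0.068 with a mouse left out.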

Other observations

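Over single regions, a comparison added after the values were seen, the genes with the highest Pearson's r to Thrsp in the 60 epithelium regions of 14 mice were Hdc (0.84), which encodes the histamine-forming enzyme, Ndufc2 (0.79) and Galm (0.79). For Dio1 they were Ano5 (0.83), Arsj (0.82) and Arhgap10 (0.81), and for Dio2 in the 35 stroma regions of 13 mice Cacna1g (0.77), Gbp3 (0.77) and Oas2 (0.77), the last 2 being interferon-induced genes. Regions of a mouse are not independent, so these are descriptions only, and 0 of the 3 genes most like Thrsp, Dio1 or Dio2 over mice were among them.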
